A study of Drosophila melanogaster with 4 samples.

Results

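The regions described are the H2Av clusters on 3R, the right arm of chromosome 3 of Drosophila melanogaster, that start above 2000000, so that the 2 Mb at the centromere end of the arm are left out. Clusters are the authors' name for stretches where a chromatin immunoprecipitation (ChIP) library was enriched over its input. The members were 1272 of 6778 clusters in the list of replicate 1 (18.8%), 1360 of 6672 in that of replicate 2 (20.4%) and 1460 of 7576 in the authors' combined list (19.3%). The remaining 111, 106 and 124 clusters of 3R started at or below the limit, and none of them reached across it. The first member of replicate 1 ran from 2134470 to 2135975 with a score of 0.571, and the last cluster left out ran from 1996535 to 1998038 with a score of 0.406. In replicate 2 the first member ran from 2009793 to 2012334 with a score of 1.17, and the last one left out from 1851639 to 1853034 with a score of 0.935.

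The study profiled heads of wild-type Oregon-R flies, given the stage label Mixed Adult, with an antibody named 9751 against H2Av. The labels give 2 ChIP replicates and 2 inputs, 1 input for each replicate, but do not tell whether separate populations of flies were used, so the replicates may differ by technical steps alone. A head holds neurons, glia, photoreceptors, cuticle, muscle and fat, and the lists do not separate these cells. Coordinates are 1-based on FlyBase release 5, in which 3R is 27905053 bp long, and 25.9 Mb of it is described here. The sequencing depth behind the lists is unknown, and a stretch without a cluster was not called but is not shown to lack H2Av.

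H2Av is a variant of histone H2A that replaces the canonical protein in a fraction of nucleosomes. Flies use this 1 protein for tasks that other animals split between H2A.Z, which sits in nucleosomes near the starts of active genes and in some silent chromatin, and H2A.X, whose tail is phosphorylated at DNA breaks. Chromatin remodelling complexes built around the Domino ATPase exchange it into nucleosomes. A list of enriched regions therefore shows where along an arm nucleosomes with the variant were concentrated, and not what they do there.

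Clusters were common along 3R and mostly a few kilobases wide. They covered 23.6% of the described span in replicate 1 and 24.9% in replicate 2, a mean of 24.3 ± 0.880% (SD, n = 2), and 28.3% in the combined list. Their density was 49.1 clusters per Mb in replicate 1 and 52.5 per Mb in replicate 2. The median width was 3205 bp in replicate 1, 3143 bp in replicate 2 and 2965 bp in the combined list. The replicates differed by little at every quartile of width: the lower quartile was 1922 bp and 1899.5 bp, and the upper quartile 5815.75 bp and 5769.5 bp, in replicates 1 and 2. The narrowest member was 1301 bp in each replicate and 1001 bp in the combined list, whereas the widest was 57059 bp in replicate 1, 44642 bp in replicate 2 and 103651 bp in the combined list.

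A small number of broad clusters carried a large part of the called length. The 129 clusters over 10 kb in replicate 1 and the 136 in replicate 2 were 10.1% and 10.0% of the members, and they held 33.3% and 33.1% of the called length. Clusters of 2 kb or less were far more numerous, at 346 and 378, but held 9.03% and 9.36% of the length. In the combined list 192 clusters exceeded 10 kb and held 45.1% of the length. Of its clusters, 168 touched more than 1 cluster of replicate 1, and 198 touched more than 1 of replicate 2. Between the replicates such joins were about as frequent, at 174 clusters of replicate 1 and 179 of replicate 2.

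The authors' score is 1 number per cluster whose scale no header names, so it serves here to rank clusters within a list. In replicate 1 the scores of 3R ranged between 0.154 and 2.19 with a median of 0.878, and in replicate 2 between 0.312 and 2.61 with a median of 0.997. Wider clusters scored higher in both. The median score of replicate 1 was 0.564 for clusters of 2 kb or less, 0.902 from 2 to 5 kb, 1.21 from 5 to 10 kb and 1.36 above 10 kb. In replicate 2 the same classes had medians of 0.716, 1.01, 1.39 and 1.50. Across clusters, which are not independent replicates and share a library, width and score correlated with a Spearman rho of 0.74 over the 1272 clusters of replicate 1 and 0.75 over the 1360 of replicate 2.

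**Figure D1:**
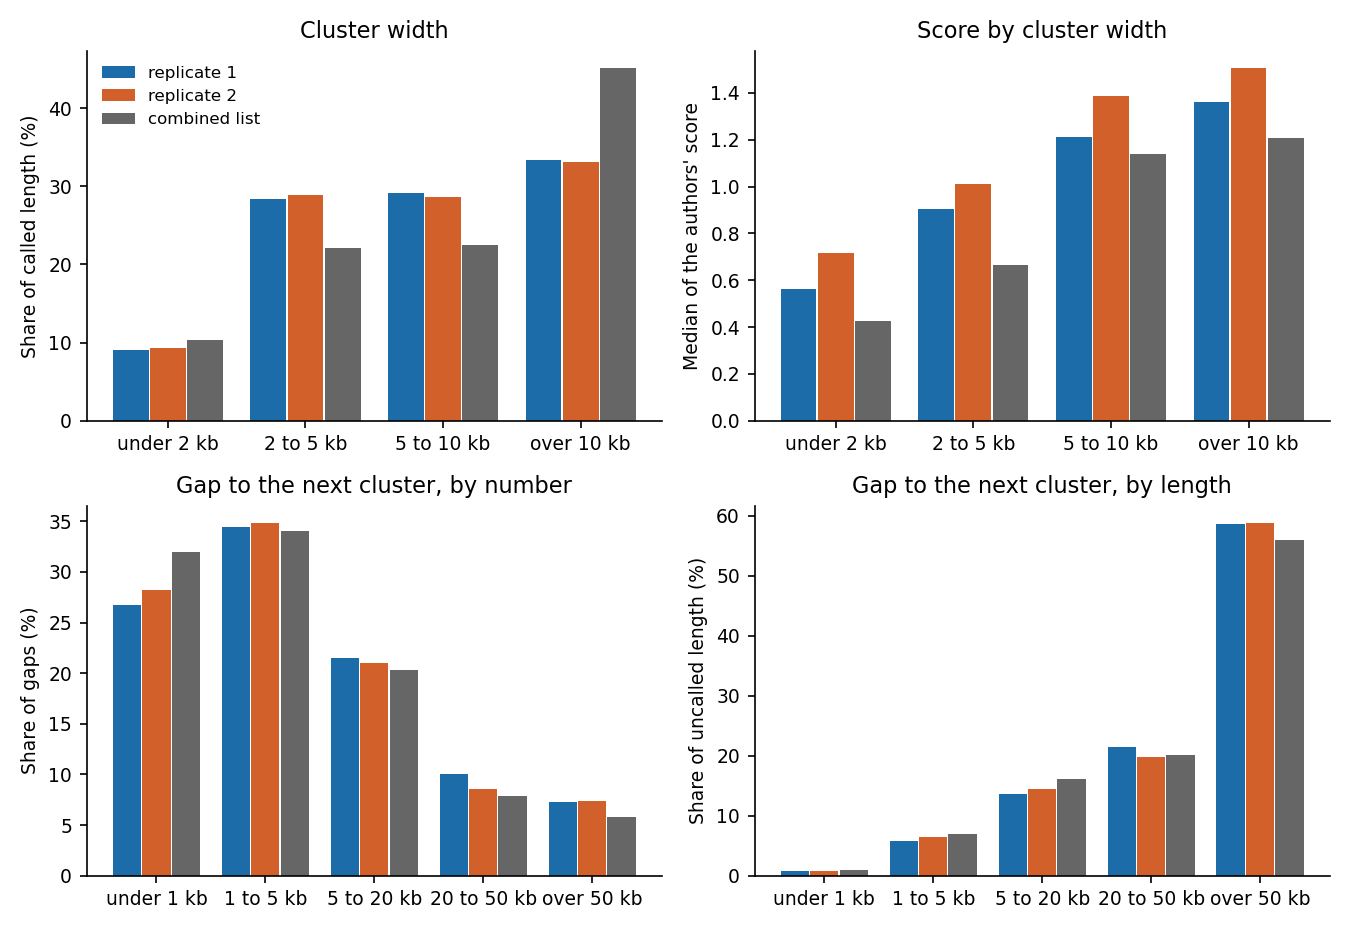
Width and spacing of the 3R clusters in the 2 replicate lists and the combined list. The upper panels give the share of called length (%) and the median of the authors' score by cluster width; the lower panels give the share of gaps between neighbouring clusters by number (%) and by length (%). Clusters over 10 kb hold 33.3% and 33.1% of the length in the replicates, and gaps over 50 kb hold 58.6% and 58.7% of the uncalled length between clusters.

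Spacing was strongly uneven. Counting from the end of 1 cluster to the start of the next, the median gap was 3098 bp in replicate 1 and 2962 bp in replicate 2, a mean of 3030 ± 96.2 bp (SD, n = 2), but the mean gap was 15452.8 bp and 14306.9 bp. Gaps under 1 kb made up 26.8% and 28.3% of all gaps and less than 1% of the uncalled length between clusters (0.749% and 0.798%). Gaps over 50 kb, 93 in replicate 1 and 100 in replicate 2, were 7.32% and 7.36% of the gaps and held 58.6% and 58.7% of that length. The clusters were thus set close together in groups with long uncalled stretches between them, and this held in both lists.

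Clusters less than 1 kb apart were treated as chains. Replicate 1 had 932 chains, of which 698 were a single cluster, and replicate 2 had 976, of which 723 were single. The largest chain by number held 5 clusters in replicate 1 and 7 in replicate 2. Many of these short gaps were not seen in the other library: of the 338 gaps of at least 1 bp and under 1 kb in replicate 1, 166 (49.1%) lay wholly inside a cluster of replicate 2, and of the 383 in replicate 2, 168 (43.9%) lay wholly inside a cluster of replicate 1. Whether a broad region was called as 1 cluster or as several close neighbours therefore differed often between the replicates.

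The widest region of the arm shows this splitting. In the combined list it was 1 cluster of 103651 bp, 3R from 4068066 to 4171716, which was the widest cluster of that list on any chromosome. Replicate 1 divided it into 4 clusters, from 4068131 to 4077935 (9.805 kb), 4077938 to 4107201 (29.3 kb), 4108247 to 4114493 (6.247 kb) and 4114548 to 4171606 (57.1 kb). Replicate 2 divided it into 3, from 4068043 to 4112684 (44.6 kb), 4112742 to 4140436 (27.7 kb) and 4140803 to 4171798 (31.0 kb). The breaks fell at different places, yet 98.8% of the combined cluster was called in replicate 1 and 99.6% in replicate 2. Joined over gaps of less than 1 kb, the region was 1 chain of 112473 bp in replicate 2, whereas the longest chain there in replicate 1 was 68565 bp. This difference depends on the limit: the only gap in the region that kept replicate 1 apart, between 4107201 and 4108247, was barely over 1 kb.

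Apart from that region, the broadest calls lay close together. By the mean width of a cluster and its best partner, the 5 widest matched pairs of the arm were the 2 within the region above and 3 between 20648349 and 20924679. Of these 3, the replicate 1 clusters from 20869435 to 20892901 (23.5 kb, score 1.54) and from 20893488 to 20924679 (31.2 kb, score 1.52) shared 1 partner in replicate 2, from 20869232 to 20906668 (37.4 kb, score 1.90). The combined list followed the boundary of replicate 1, with clusters of 23.8 kb and 31.4 kb. The cluster from 20648349 to 20678713 was alike in both lists, at 30.4 kb with a score of 1.34 in replicate 1 and 29.8 kb with a score of 1.43 in replicate 2.

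The 5 highest-scoring matched clusters of 3R were narrower, and in each both edges lay within 500 bp of those in the other list. The highest, from 18564744 to 18577334, was 12.6 kb wide in both replicates and scored 2.05 in replicate 1 and 2.61 in replicate 2. Next came 20747313 to 20753866 (6.55 kb; scores of 2.03 and 2.29) and 25627375 to 25634534 (7.16 kb; 2.19 and 2.04). The remaining ones ran from 11152072 to 11160207 (8.14 kb; 1.95 and 2.27) and from 23088068 to 23092823 (4.76 kb; 2.08 and 2.13). Each of these 5 had a single partner in the other list, and none was among the 5 widest.

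The replicates placed most of the called length of 3R in common. Their common length was 5.19 Mb: 84.8% of what replicate 1 called, 80.5% of what replicate 2 called and 70.4% of the 7.38 Mb called by at least 1 of them. By number, 1062 clusters of replicate 1 (83.5%) and 1053 of replicate 2 (77.4%) touched a cluster of the other list by at least 1 bp. Touching depended on width: in replicates 1 and 2, 55.5% and 41.0% of clusters of 2 kb or less touched a partner, 89.6% and 85.9% of those from 2 to 5 kb, and 100% and 99.2% of those from 5 to 10 kb. Every cluster over 10 kb, 129 in replicate 1 and 136 in replicate 2, touched a cluster of the other replicate. Wide clusters meet another list by chance more often, and no test of this contrast was made.

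Clusters without a partner were narrow and often stood beside one. The 210 in replicate 1 were 1615 bp wide at the median with a median score of 0.652, and the 307 in replicate 2 had medians of 1642 bp and 0.790. Their median distance to the nearest cluster of the other list was 3045.5 bp in replicate 1 and 4006 bp in replicate 2. For scale, the median gap between neighbours within a list was 3098 bp in replicate 1 and 2962 bp in replicate 2. Few were isolated: 1 in replicate 1 and 12 in replicate 2 lay more than 50 kb away. The combined list rests on the same libraries and touched 158 of the 210 and 183 of the 307.

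Where a cluster of each list met only the other, the calls could be compared edge by edge. There were 615 such pairs. Their starts differed by a median of 273 bp and their ends by 279 bp, and in 315 pairs (51.2%) both edges lay within 500 bp of each other. The score was higher in replicate 2 for 485 of the 615 pairs, and over all 615 the median of replicate 2 minus replicate 1 was 0.19. Since no header names the scale of the score, this difference cannot be read as stronger enrichment. Across these pairs Spearman's rho was 0.83 for the scores and 0.86 for the widths, and Pearson's r was 0.82 and 0.96; these values describe pairs of clusters chosen because they overlap.

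In windows of 100 kb the profile along the arm was nearly the same in both replicates. The 259 windows, laid out from the first base above 2000000, had a median coverage of 20.3% in replicate 1 and 22.4% in replicate 2, with quartiles of 4.98% and 37.3% in replicate 1 and of 6.48% and 38.1% in replicate 2. Across windows, which share their libraries and are not replicates, Spearman's rho between the lists was 0.97 and Pearson's r was 0.97. The median difference between replicates in a window was 2.20 percentage points, against an SD over windows of 20.1 points in replicate 1 and 20.8 points in replicate 2. In 247 of the 259 windows the replicates lay within 10 points of each other.

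**Figure D2:**
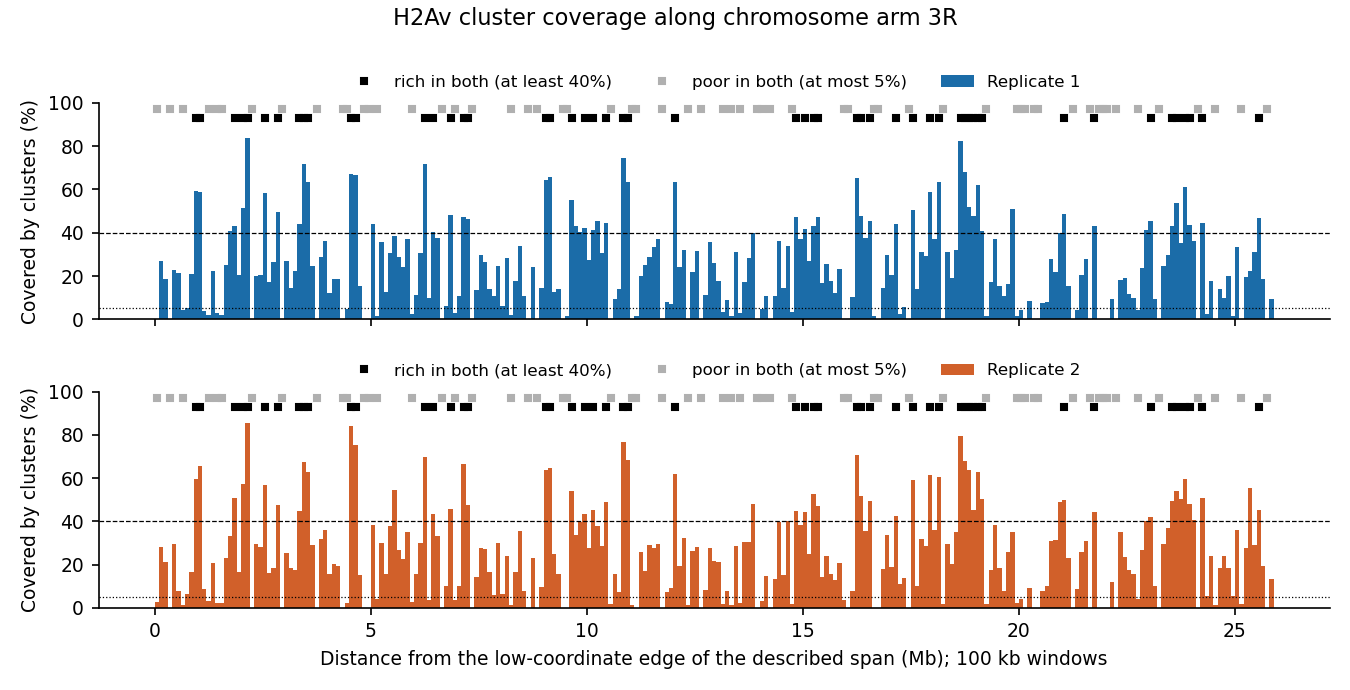
Percent of each 100 kb window of 3R inside H2Av clusters, in replicate 1 (top) and replicate 2 (bottom), against distance in Mb from the low-coordinate edge of the described span. Black squares mark the 52 windows at least 40% covered in both replicates, grey squares the 60 windows at most 5% covered in both; dashed and dotted lines are at 40% and 5%. Rich and poor windows are mixed with windows of neither class, and 20 of the 26 segments of 1 Mb hold both. The longest rich run of 6 windows stands at 18.6 to 19.2 Mb on this axis.

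Rich windows, defined as at least 40% covered in both replicates, numbered 52 of 259 (20.1%). Poor windows, at most 5% covered in both, numbered 60 (23.2%). Over the 5 large arms together, 3R included and each without the 2 Mb at its centromere end, 19.9% of 1089 windows were rich and 22.0% were poor, so 3R stood close to the share of the whole. The rich windows held 46.1% of the called length in replicate 1 and 45.8% in replicate 2. The poor ones held 0.937% and 0.936%, and 31 of them had no called base in replicate 1, replicate 2 or the combined list. Since these 31 tied, no 5 least covered windows could be singled out.

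The class of a window carried from 1 library to the other. Of the 59 windows at least 40% covered in replicate 1, 52 were so in replicate 2, where they had a median of 50.7% and a lowest value of 33.3%. Of the 59 such windows in replicate 2, 52 were so in replicate 1, with a median of 47.8% and a lowest value of 22.1%. Of the 66 windows at most 5% covered in replicate 1, 60 were so in replicate 2, and the highest of the 66 stood there at 10.9%. No window was rich in 1 replicate and poor in the other.

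**Figure D3:**
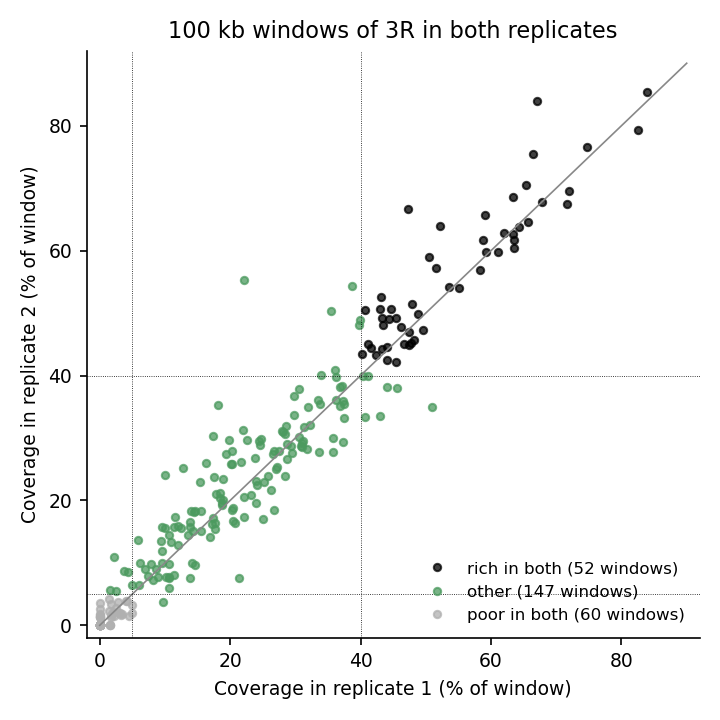
Coverage (%) of each of the 259 windows of 100 kb in replicate 1 (horizontal) and replicate 2 (vertical); dotted lines are at 5% and 40%, and the diagonal marks equal coverage. Points follow the diagonal, with 247 windows within 10 percentage points; the point farthest above it stands at 22.1% in replicate 1 and 55.2% in replicate 2.

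Rich windows held more clusters than the others, and their clusters were wider at the median. To keep the choice of windows apart from the values, classes were set in 1 replicate and clusters counted in the other. In windows that replicate 2 put at 40% or more, replicate 1 had 8.76 clusters per window, 3754 bp wide at the median and with a median gap of 1999 bp. In the windows between 5% and 40% it had 5.22 clusters per window, a median of 3017 bp in width and a median gap of 4111 bp. In those at 5% or less it had 0.492 clusters per window with a median width of 1730.5 bp. With the lists exchanged, replicate 2 had 9.85, 5.44 and 0.758 clusters per window in the 3 classes, of median widths 3546, 2975 and 1817 bp. Clusters over 10 kb were 16.2% of those in rich windows and 6.21% in the middle class in replicate 1, 13.6% and 7.82% in replicate 2, and absent from the poor class in both. Within 1 list, coverage adds up the widths of the clusters and so rises with their number by construction. Across the 259 windows, Spearman's rho between coverage and number was 0.90 in replicate 1 and 0.89 in replicate 2. For median width, over only the windows with at least 3 clusters, rho was 0.36 in replicate 1 (180 windows) and 0.37 in replicate 2 (181 windows). The values for number and for width rest on different sets of windows and cannot be weighed against each other.

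Rich and poor stretches were short and mixed. Neighbouring windows correlated with an r of 0.23 in replicate 1 and 0.22 in replicate 2, and windows 2 apart with an r of -0.01 in replicate 1 and 0.00 in replicate 2. Of the 52 rich windows 29 lay in 12 blocks of at least 2 neighbours and 23 stood alone, while 24 of the 60 poor windows lay in 11 blocks and 36 stood alone. In 20 of the 26 segments of 1 Mb there was at least 1 window of each class. A rich window directly adjoined a poor one in 15 cases, so coverage could change steeply from 1 window to the next. Rich windows were 20.1% and poor windows 23.2% of all, and what a random order of them would give was not computed.

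**Figure D4:**
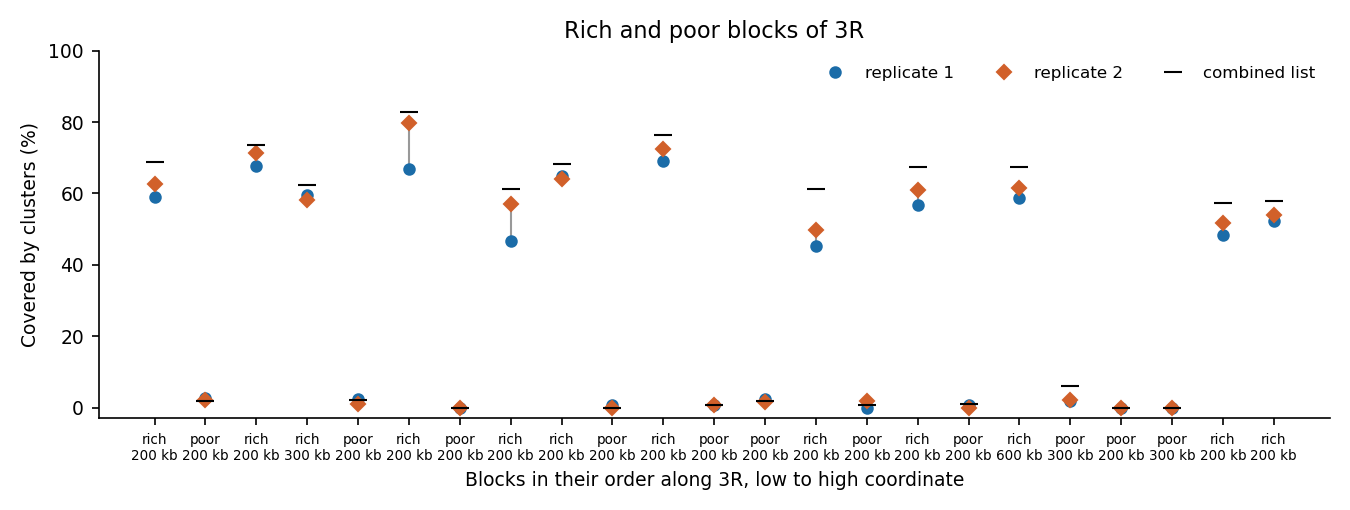
Coverage (%) of the 12 rich and 11 poor blocks of 3R in their order along the arm, with replicate 1 as circles, replicate 2 as diamonds and the combined list as dashes; the length of each block in kb stands under it. Rich blocks lie between 45.2% and 79.7% in the replicates and poor blocks between 0% and 2.53%; the gap between the classes follows from the limits of 40% and 5% that define them.

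The longest rich block was 600 kb, 3R from 20600001 to 21200000, covered to 58.8% in replicate 1, 61.6% in replicate 2 and 67.3% in the combined list. Its 6 windows, in order, stood at 82.6%, 67.9%, 52.1%, 47.7%, 62.0% and 40.6% in replicate 1. In replicate 2 they stood at 79.4%, 67.8%, 63.9%, 45.2%, 62.8% and 50.5%. Both lists were highest in the first window, and the fourth was under 50% in each. The block held 53 clusters in replicate 1 and 57 in replicate 2, of which 9 in each were over 10 kb.

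The second longest was 300 kb, from 5300001 to 5600000, at 59.7% in replicate 1 and 58.2% in replicate 2. The others named were 200 kb each. The block from 6500001 to 6700000 had a coverage of 66.7% in replicate 1 and 79.7% in replicate 2 (mean 73.2 ± 9.17%, SD, n = 2), with 21 clusters in replicate 1 and 31 in replicate 2. The block from 12800001 to 13000000 stood at 69.1% and 72.6%, and the block from 4000001 to 4200000, which holds the 103651 bp cluster of the combined list, at 67.7% and 71.3% in replicates 1 and 2. That last block was made of 13 clusters in each replicate, fewer than in any other rich block, and its clusters included the broadest of the arm.

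The window with the highest mean of the replicates lay in it, from 4100001 to 4200000, with 83.9% in replicate 1 and 85.5% in replicate 2. In the combined list it stood at 86.8%, below the 87.4% of the window from 6500001 to 6600000. Behind it came 20600001 to 20700000 (82.6% and 79.4%), 12800001 to 12900000 (74.7% and 76.6%), 6500001 to 6600000 (67.0% and 83.9%) and 6600001 to 6700000 (66.5% and 75.5%). Each of these 5 belonged to one of the blocks named above.

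Poor blocks were at most 300 kb long. The longest with the lowest coverage ran from 23800001 to 24100000, where no list had a called base. In the block from 21900001 to 22200000 coverage was 1.87% in replicate 1 and 2.06% in replicate 2, but 6.09% in the combined list, which placed 9 clusters there against 2 and 3 in the replicates. The blocks from 6800001 to 7000000 and from 22300001 to 22500000 had no called base in any list. In the block from 18600001 to 18800000 there was 1 cluster in replicate 1, none in replicate 2, and 0.754% and 0% of the length was called.

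Some of the steepest changes were at the edges of these blocks. The rich block from 6500001 to 6700000 was preceded by 2 poor windows and followed, after 1 window at 15.5% in replicate 1 and 15.2% in replicate 2, by the empty block from 6800001. From the window that ends at 6500000 to the one that starts at 6500001, coverage changed from 4.95% to 67.0% in replicate 1 and from 2.03% to 83.9% in replicate 2. At 13000000 the rich block from 12800001 gave way directly to a poor block that ran to 13200000 and had a coverage of 0.785% in replicate 1 and 0.695% in replicate 2.

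Measured by base rather than by window, the longest stretch of the span with no cluster in either replicate was 343 kb, from 23794590 to 24138065. Those after it were 259 kb (22016825 to 22276302), 253 kb (22287138 to 22539677), 246 kb (18620703 to 18866362) and 237 kb (6784526 to 7021054). The stretches ending at 22276302 and starting at 22287138 were 10835 bp apart, with only that interval between them holding a call. In all there were 85 of them over 50 kb, which took up 37.8% of the span, and 40 over 100 kb, which took up 26.1%. The combined list had no cluster at all in 29 of the 85. A cluster counted here however little of the stretch it covered. Each of the named stretches was touched by the combined list, but only by a small share of its length. In the order given above, these shares were 0.124%, 0.165%, 0.00515%, 0.194% and 0.0402%. Assembly gaps and repeated sequence were not looked at.

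Over segments of 5 Mb the unevenness was smaller. Starting above 2000000, coverage was 25.7 ± 0.574%, 24.5 ± 0.270%, 22.2 ± 0.0770%, 29.5 ± 0.726% and 19.7 ± 2.25% in successive segments (SD, n = 2 each). The segment from 17000001 to 22000000 was the highest in each replicate, with 16 rich and 8 poor windows. The segment from 22000001 to 27000000 was the lowest in each, with 8 rich and 14 poor windows. The median score changed little between segments, lying between 0.851 and 0.914 in replicate 1 and between 0.968 and 1.03 in replicate 2.

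The replicates parted most towards the telomere end. In the last 5 Mb, from 22905054 to the end of the arm, coverage was 24.0% in replicate 2 and 20.2% in replicate 1, a ratio of 1.19, and the number of clusters was 265 in replicate 2 and 205 in replicate 1. In the rest of the span coverage was 25.1% in replicate 2 and 24.5% in replicate 1, a ratio of 1.03. Replicate 2 was higher in 6 of 6 segments of 1 Mb from 22000001, by 2.23 to 5.15 percentage points, and in 15 of the 20 before them, where the difference was at most 2.93 points. The 5 Mb at the telomere end of 2L, 2R and 3L also had higher coverage in replicate 2, with ratios of 1.16, 1.13 and 1.10, against 0.963, 1.03 and 0.978 in the rest of those arms. On X the ratio was 0.932 at the telomere end and 0.809 in the rest. So the higher ratio at the telomere end was seen on each of these 5 arms; it was noticed after the values had been seen, rests on 1 pair of libraries and was not tested.

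**Figure D5:**
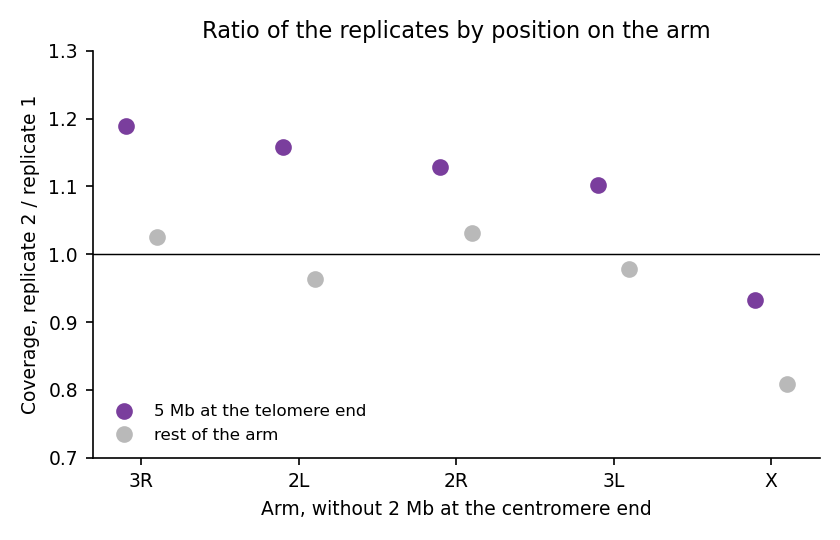
Ratio of coverage in replicate 2 to coverage in replicate 1 for the 5 Mb at the telomere end (purple) and for the rest of the arm (grey) on 3R, 2L, 2R, 3L and X, each without the 2 Mb at its centromere end; the line marks a ratio of 1 and the vertical axis begins at 0.7. On 3R the ratio is 1.19 at the telomere end and 1.03 in the rest, and on the other 4 arms the telomere end is likewise the higher of the pair.

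The window that differed most between the replicates lay in that end, from 27300001 to 27400000, and was singled out after its values were seen. Replicate 2 covered 55.2% of it and replicate 1 covered 22.1%, with 48.7% in the combined list. Replicate 2 had 19 clusters touching it, between 1358 bp and 20007 bp wide, and replicate 1 had 7, between 1335 bp and 12366 bp wide. All 7 of replicate 1 touched a cluster of replicate 2, whereas 6 of the 19 touched one of replicate 1. The next largest difference was at 9100001 to 9200000, at 66.6% in replicate 2 and 47.3% in replicate 1.

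Set beside the other autosomal arms, 3R was covered slightly more than 2L and 3L and less than 2R. Without the 2 Mb at the centromere end, coverage was 24.3 ± 0.880% on 3R, against 21.0 ± 0.172% on 2L, 22.8 ± 0.102% on 3L and 29.1 ± 1.19% on 2R (SD, n = 2 each). The difference was positive in both replicates, at 3.23 ± 0.708 percentage points against 2L and 1.44 ± 0.779 points against 3L. It was negative in both, at -4.86 ± 0.308 points, against 2R. Against X, at 24.5 ± 3.15%, it was -3.07 points in replicate 1 and 2.63 points in replicate 2, so its direction was not shared. Clusters per Mb followed coverage, at 50.8 ± 2.40 on 3R, 44.7 ± 0.841 on 2L, 49.5 ± 1.91 on 3L and 58.5 ± 3.10 on 2R. Median widths were 3174 ± 43.8 bp on 3R, 3097.75 ± 37.1 bp on 2L, 3178.5 ± 92.6 bp on 3L and 3250.25 ± 30.8 bp on 2R, and the difference from 3L changed sign between replicates. The median score on 3R minus that on X was -0.236 in replicate 1 and -0.136 in replicate 2. Over 20 such comparisons (5 measures against 4 arms), the two-sided exact permutation test over 2 replicates cannot go below p = 0.5. Its outcome could therefore not decide whether any measure is particular to 3R, and no conclusion is drawn from it.

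The combined list called more of 3R than either replicate and added narrow clusters. It covered 7.33 Mb, and 70.7% of this length lay in clusters of both replicates. A further 10.4% was called by replicate 1 only, 11.0% by replicate 2 only and 7.87% by none of them. It contained 99.9% of the length that both replicates called and 71.8% of the length that only 1 called. Its 231 clusters that touched neither replicate (15.8% of the members) were 1255 bp wide at the median and scored 0.458, against 3501 bp and 0.696 for the others. Of the 231, 124 were narrower than 1301 bp, the smallest width in either replicate list.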

How the data were processed

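The data are 3 lists of H2Av clusters from heads of adult Oregon-R flies, 1 for each of 2 ChIP replicates and 1 for the replicate set. Per the labels, each replicate was called with its paired input. The authors deposited a start, an end and a score per cluster, and no header names the scale of the score. The submitters' processing notes name Bowtie 0.12.7 for the reads. Per the file headers, positions refer to FlyBase release 5. How clusters were called, with which window and cut, and how the replicate set was formed is not given in the sources used here. The 2 inputs were used only through these calls.

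The analysis used Python 3.11.15, pandas 2.3.3, numpy 2.4.6 and scipy 1.17.1, with figures drawn in matplotlib 3.10.9; the functions were tested on simulated lists. Windows of 100 kb began at the first base above 2000000, and the last 5053 bp of 3R, which fill no window, were left out of window counts. Overlap meant at least 1 bp, and a partner was the cluster with the largest overlap. Values are per replicate, with mean and SD (n = 2).

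Named were the 5 longest rich and poor blocks, the 5 most covered windows, the 5 widest and 5 highest-scoring matched clusters and the 5 longest stretches without a cluster. The 5 least covered windows were also to be named, but 31 tied with no called base. The members and these rules were chosen with earlier results of these data known. Gene positions were on hand only for release 6, so genes were not placed.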

Additional observations from a re-analysis of the deposited data

How the results depend on the processing

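Of 53 values recomputed for 12 results, 29 stayed and 24 moved. Staying meant within 1 SD of the replicates, within 1.5 times for counts of windows, and within rounding for values with no SD. The limit for counts is wide. Rich windows numbered 74 in the combined list against 52, and poor windows 78 in the upper 50% by score against 60, and both stayed. For a result given as the mean of 2 replicates, leaving out either replicate always stays within 1 SD. Such values among the 29 were fixed in advance and say nothing about robustness. The cause of the moves was not tested, except that score rises with width and that the joining of neighbours merges clusters by construction. In the upper 50% of each list by score, coverage was 16.9%, with 23.3 clusters per Mb, a median width of 5471 bp, a score of 1.37 at the median, 45.5% of the length over 10 kb, a median gap of 8233.25 bp, 67.3% of the called length shared, a Spearman correlation of windows of 0.916 and 23 rich windows. In the combined list, coverage was 28.3%, with 56.4 clusters per Mb, a median width of 2965 bp, a score of 0.583 at the median, 45.1% of the length over 10 kb, a median gap of 2527 bp and a longest stretch of 364847 bp. With clusters under 1 kb apart joined there were 36.8 per Mb, 3799.5 bp wide at the median with a median gap of 5311 bp. Windows of 50 kb correlated with a rho of 0.958. At 50% or more, 26 windows were rich, and 31 had no covered base. Over whole arms, coverage of 3R was 1.06 times that of 2L and 3L pooled, against 1.10 times without the 2 Mb at their centromere ends. With either replicate left out, the longest stretch lay between 343476 and 369858 bp. No paired analysis was possible because only the ChIP libraries have lists, and the inputs with the same numbers enter through the calls alone. How depth limits the calling of narrow clusters is unknown here.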
